A study of Mus musculus with 32 samples.

Results

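Chemokines are small secreted proteins that steer cells through G protein-coupled receptors, and 10 genes of this system were followed across all groups of the study. They were 5 CC ligands (*Ccl3*, *Ccl4*, *Ccl5*, *Ccl6* and *Ccl9*), 1 CXC ligand (*Cxcl2*) and 4 receptors (*Cxcr4*, *Ccr2*, *Ccr7* and *Ccr9*). The genes were picked by symbol, with earlier results of these arrays known, out of 19938 genes that had a probeset of their own. For a gene with several probesets the one with the highest mean over the 32 arrays was to be taken, but each of the 10 genes had 1 such probeset, so that the mean decided nothing.

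Gene expression was measured on 32 Affymetrix arrays in 7 groups. The leukemia experiment held bone marrow of untreated mice that had developed B-cell leukemia, *Pax5+/-;Myd88+/-* (n = 6) and *Pax5+/-* (n = 6), and proB/preB cells sorted as B220low IgM- from healthy wild-type (WT) marrow (n = 4). The culture experiment held proB cells of *Pax5+/-;Myd88-/-*, *Pax5+/-;Myd88+/-*, *Pax5+/-* and WT mice (n = 4 each), where *Pax5+/-;Myd88-/-* and *Pax5+/-;Myd88+/-* together are called *Myd88*-deficient. *Pax5* encodes a transcription factor that fixes B-cell identity, and *Myd88* an adaptor that carries signals from Toll-like receptors and the IL-1 receptor. Both alleles were constitutive, so that every cell of a mouse carried them. Mice had a mixed C57BL/6 x CBA background, and the labels of all samples state specific pathogen-free housing for 2 months and a conventional facility after that. The leukemias arose in adult mice, and the labels give no age for the single animals. The labels describe the proB cells as B220+ marrow cells taken on magnetic columns from healthy mice, and the methods grow such cells with IL7 on ST2 stromal feeder cells. The methods take the donors of these cultures at a few weeks of age, before the move that the labels state, so that the housing of the culture donors is not settled. The methods name the WT, *Pax5+/-* and *Pax5+/-;Myd88+/-* cultures but not the *Pax5+/-;Myd88-/-* one.

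In the bone marrow CXCL12 holds B-cell precursors in their niche through CXCR4, and CCR7 later guides lymphocytes towards CCL19 and CCL21 in lymphoid organs. CCL3, CCL4 and CCL5 are inflammatory ligands made by activated macrophages, natural killer (NK) cells, T cells and B cells. CCL6 and CCL9 are rodent CC ligands made mainly by myeloid cells, CXCL2 draws neutrophils through CXCR2, CCR2 brings monocytes out of the marrow, and CCR9 answers to CCL25 in gut and thymus and also marks plasmacytoid dendritic cells (pDC).

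The values are log2 array signals, so that a difference of 1 is a doubling, and levels are compared only within a gene. Array medians lay between 6.88 and 7.03, and arrays of 1 group correlated at 0.967 to 0.998. *Myd88* averaged 8.83 in *Pax5+/-;Myd88+/-* leukemias, 10.13 in *Pax5+/-* leukemias and 10.08 in WT sorted cells, and in cultures 7.32 (*Pax5+/-;Myd88-/-*), 8.64 (*Pax5+/-;Myd88+/-*), 9.28 (*Pax5+/-*) and 9.46 (WT). The mean over 9 B-lineage markers was 9.34 to 11.70 in *Pax5+/-;Myd88+/-* leukemias, 8.65 to 11.72 in *Pax5+/-* leukemias, 11.68 to 11.92 in sorted cells and 11.28 to 12.06 in cultures, so that leukemic marrow varied most in its B-lineage signal. Among WT cultures that mean was 12.04 and 12.06 in arrays 1 and 3 but 11.33 and 11.28 in arrays 2 and 4. *Xist*, which is expressed from an inactive X chromosome, averaged 12.38 and 12.47 in *Pax5+/-;Myd88-/-* and *Pax5+/-;Myd88+/-* cultures, against 5.76 and 5.73 in *Pax5+/-* and WT cultures. In the cultures, loss of *Myd88* and sex therefore cannot be told apart. In *Pax5+/-;Myd88+/-* leukemias *Xist* ran between 5.39 and 12.8 and in *Pax5+/-* leukemias between 5.44 and 9.72, against a mean of 12.32 in sorted cells. In WT cultures arrays 1 and 3 correlated at 0.9982 and arrays 2 and 4 at 0.9979, against 0.9906 to 0.9912 for the other pairs, and *Pax5+/-* cultures had the same pairs (0.9965 and 0.9976, against 0.9913 to 0.9951). The pairs were not distinct in *Pax5+/-;Myd88-/-* cultures (0.9972 and 0.9980, against 0.9969 to 0.9977) and *Pax5+/-;Myd88+/-* cultures (0.9967 and 0.9949, against 0.9914 to 0.9961), and the labels do not say whether such arrays shared an animal. The mean over 14 stromal markers was higher in arrays 1 and 3 than in arrays 2 and 4 of all 4 culture genotypes: 7.45 and 7.49 against 7.30 and 7.24 (*Pax5+/-;Myd88-/-*), 7.92 and 7.87 against 7.36 and 7.33 (*Pax5+/-;Myd88+/-*), 8.16 and 8.22 against 7.16 and 7.21 (*Pax5+/-*), and 8.21 and 8.21 against 7.64 and 7.65 (WT).

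A gene was counted as changed when limma's moderated test gave an adjusted p under 0.05 and the log2 difference exceeded 1 in size, with p-values adjusted over all 28944 probesets. Among the 10 genes, *Ccl4*, *Cxcl2*, *Cxcr4* and *Ccr9* passed in none of the 9 comparisons. *Pax5+/-;Myd88+/-* leukemias differed from WT sorted proB/preB cells in 4 genes, all lower (*Ccl3*, *Ccl5*, *Ccr2* and *Ccr7*), where 7.64% of all probesets were called. *Pax5+/-* leukemias differed from the same sorted cells in 4 genes, with *Ccl3*, *Ccl5* and *Ccr7* lower and *Ccl9* higher, where 4.44% of all probesets were called. These 2 comparisons share the sorted cells. Between *Pax5+/-;Myd88+/-* and *Pax5+/-* leukemias limma called 0 of the 10 genes, with 2 at an unadjusted p under 0.05, where 3.82% of all probesets were called.

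In cultures, *Pax5+/-* cells differed from WT cells in 1 gene (*Ccl3*, higher), where 1.08% of all probesets were called. *Pax5+/-;Myd88+/-* cultures differed from *Pax5+/-* cultures in 3 genes (*Ccl3* and *Ccl6* higher, *Ccr2* lower, with 0.812% of all probesets called) and from WT cultures in 3 genes (*Ccl3* and *Ccl9* higher, *Ccr2* lower, with 1.15% of all probesets called). *Pax5+/-;Myd88-/-* cultures differed from *Pax5+/-* cultures in 1 gene (*Ccr2*, lower, with 0.985% of all probesets called), and from WT cultures in 2 genes (*Ccl3* higher, *Ccr2* lower, with 1.28% of all probesets called). Between *Pax5+/-;Myd88-/-* and *Pax5+/-;Myd88+/-* cultures limma called 0 of the 10 genes, with 3 at an unadjusted p under 0.05, where 0.808% of all probesets were called. The culture comparisons share groups and are not independent of each other. The median log2 difference over the 10 genes was -0.53 for *Pax5+/-;Myd88+/-* and -0.63 for *Pax5+/-* leukemias against sorted cells, and 0.51 for *Pax5+/-;Myd88+/-* against *Pax5+/-* cultures, where the medians over all probesets lay between -0.033 and 0.008 in all 9 comparisons. Since the genes were picked with results known, nothing is read from these counts and medians about chemokine genes as a group, and the values of each gene are given instead.

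**Figure D1:**
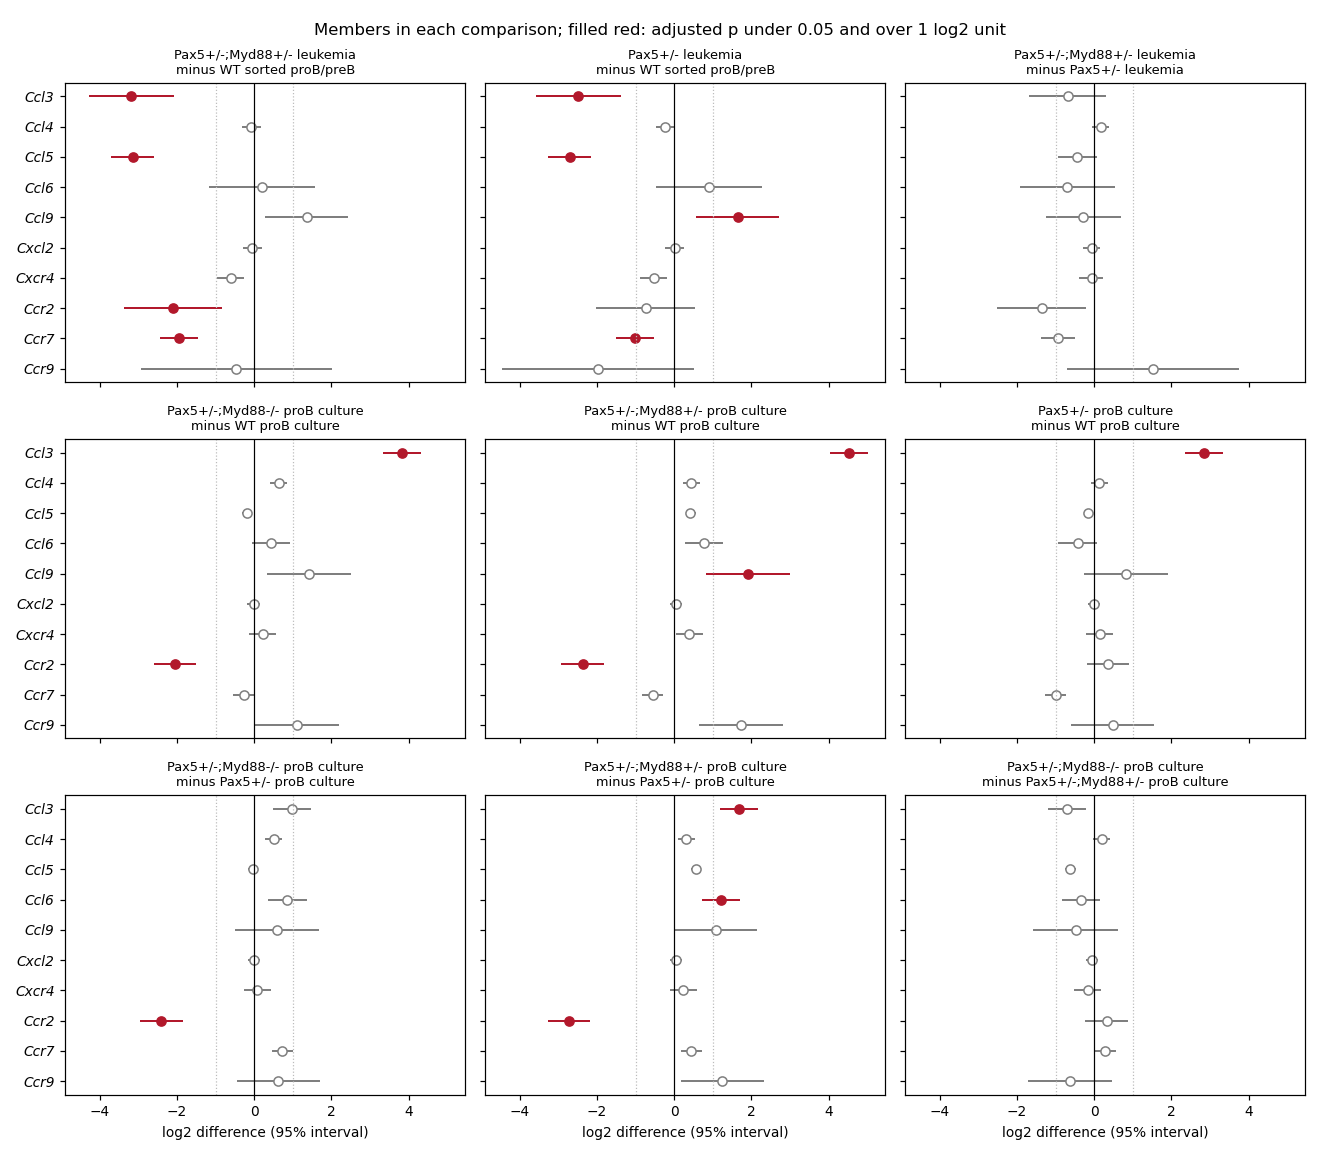
Log2 difference (x axis, first-named group minus second) of the 10 genes in 9 comparisons, 1 panel each, with the 95% confidence interval of limma's fit as a bar. Filled red points passed the test: *Ccl3*, *Ccl5* and *Ccr7* lie left of 0 in both leukemia panels against sorted cells, whereas *Ccl3* lies right of 0 and *Ccr2* left of 0 where *Myd88*-deficient cultures are set against WT cultures.

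*Ccl3* (probeset 10389231), the gene of macrophage inflammatory protein 1 alpha, had the widest span of group means among the 10 genes, 4.52 log2 units, which exceeded that of 99.7% of probesets. In *Pax5+/-;Myd88+/-* leukemias its level was 6.36 at the lowest, 6.84 at the median and 7.58 at the highest, in *Pax5+/-* leukemias 6.51, 7.09 and 9.4, and in WT sorted cells 9.85 to 10.38. All 12 leukemias lay below the 4 sorted samples, with *Pax5+/-* replicates 2 (9.4) and 6 (8.89) nearest to them. *Ccl3* fell by 3.18 in *Pax5+/-;Myd88+/-* leukemias (SE 0.50, adjusted p = 0.000167, limma) and by 2.48 in *Pax5+/-* leukemias (SE 0.50, adjusted p = 0.00233, limma). Such a difference in bulk marrow cannot tell fewer cells of a type from less RNA per cell. The mean over 12 NK markers was 7.71 to 8.55 in the sorted cells. It was 5.64 to 6.42 in *Pax5+/-;Myd88+/-* and 5.73 to 6.23 in *Pax5+/-* leukemias. The part of NK cells in the fall of *Ccl3* was not tested. Between *Pax5+/-;Myd88+/-* and *Pax5+/-* leukemias the difference was -0.69 (95% interval -1.65 to 0.27), smaller than the spread among the leukemias.

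In the cultures *Ccl3* separated genotypes that the leukemias did not. Its values were 10.68, 10.30, 10.49 and 10.17 in *Pax5+/-;Myd88-/-* cultures, 10.64, 11.25, 10.97 and 11.58 in *Pax5+/-;Myd88+/-* cultures, 9.41, 9.54, 9.27 and 9.50 in *Pax5+/-* cultures, and 7.02, 6.20, 7.05 and 6.08 in WT cultures. Only the first 2 of these groups overlapped, through *Pax5+/-;Myd88-/-* replicate 1 and *Pax5+/-;Myd88+/-* replicate 1. Relative to WT cultures *Ccl3* rose 7.17-fold in *Pax5+/-* cultures (log2 difference 2.84, SE 0.22, adjusted p = 2.15e-07, limma), 23.0-fold in *Pax5+/-;Myd88+/-* cultures (log2 difference 4.52, SE 0.22, adjusted p = 7.56e-10, limma) and 14.1-fold in *Pax5+/-;Myd88-/-* cultures (log2 difference 3.82, SE 0.22, adjusted p = 5.36e-09, limma). It also rose by 1.68 in *Pax5+/-;Myd88+/-* over *Pax5+/-* cultures (SE 0.22, adjusted p = 9.36e-05, limma), although with arrays 1 and 3, and 2 and 4, averaged the adjusted p was 0.088. The NK marker *Ncr1* lay between 4.95 and 5.40 in all 16 cultures.

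*Ccl4* (probeset 10379721), the gene of macrophage inflammatory protein 1 beta, moved little. Its values ran between 6.06 and 6.60 in *Pax5+/-;Myd88+/-* leukemias, 5.93 and 6.28 in *Pax5+/-* leukemias, and 6.27 and 6.42 in sorted cells. In cultures it ran between 6.52 and 6.94 (*Pax5+/-;Myd88-/-*), 6.42 and 6.71 (*Pax5+/-;Myd88+/-*), 6.11 and 6.39 (*Pax5+/-*) and 5.94 and 6.21 (WT). Its largest difference, 0.64 between *Pax5+/-;Myd88-/-* and WT cultures (SE 0.09, adjusted p = 0.000178, limma), exceeded the spread between replicates but was short of a doubling. Over the 32 arrays *Ccl4* was, of the other 9 genes, most closely followed by *Ccl3* (Pearson r = 0.65, a description over arrays that share groups).

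*Ccl5* (probeset 10389207), the gene of RANTES, a ligand that draws T cells and monocytes, was low in both leukemia genotypes. It stood at 7.0, 7.37 and 8.31 (lowest, median and highest) in *Pax5+/-;Myd88+/-* leukemias and 7.63, 7.92 and 8.43 in *Pax5+/-* leukemias, against 11.27, 10.81, 10.52 and 10.14 in WT sorted cells. The leukemias did not overlap the sorted cells. *Ccl5* fell by 3.15 in *Pax5+/-;Myd88+/-* leukemias (SE 0.25, adjusted p = 1.86e-07, limma) and by 2.71 in *Pax5+/-* leukemias (SE 0.25, adjusted p = 3.38e-06, limma). NK markers moved with it: 9 of 12 fell in each leukemia genotype against the sorted cells, and the mean over the 12 was 5.64 to 6.42 in *Pax5+/-;Myd88+/-* leukemias, 5.73 to 6.23 in *Pax5+/-* leukemias and 7.71 to 8.55 in sorted cells. *Ncr1*, the defining NK receptor, averaged 5.40 and 5.30 in these leukemias and 9.44 in the sorted cells. Among the 4 sorted samples *Ccl5* and the NK mean ran in the same order, and the 2 genes most like *Ccl5* over the 32 arrays were *Klrc1*, an NK receptor, and *Adam19* (r = 0.96 each). The part of NK cells in the *Ccl5* difference was not tested.

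Cultured cells held *Ccl5* at 7.01, 7.10, 6.97 and 7.03 (*Pax5+/-;Myd88-/-*), 7.60, 7.64, 7.69 and 7.64 (*Pax5+/-;Myd88+/-*), 7.02, 7.07, 7.10 and 7.09 (*Pax5+/-*) and 7.16, 7.31, 7.17 and 7.23 (WT). The *Pax5+/-;Myd88+/-* cultures stood apart from the other three genotypes in every replicate, with log2 differences of 0.57 from *Pax5+/-* (SE 0.05, adjusted p = 5.48e-07, limma) and 0.42 from WT cultures (SE 0.05, adjusted p = 1.19e-05, limma). *Pax5+/-;Myd88-/-* cultures did not share this level and differed from *Pax5+/-;Myd88+/-* cultures by -0.62 (SE 0.05, adjusted p = 3.12e-07, limma). None of these differences reached a doubling, and replicates of a genotype lay within 0.15 of each other.

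**Figure D2:**
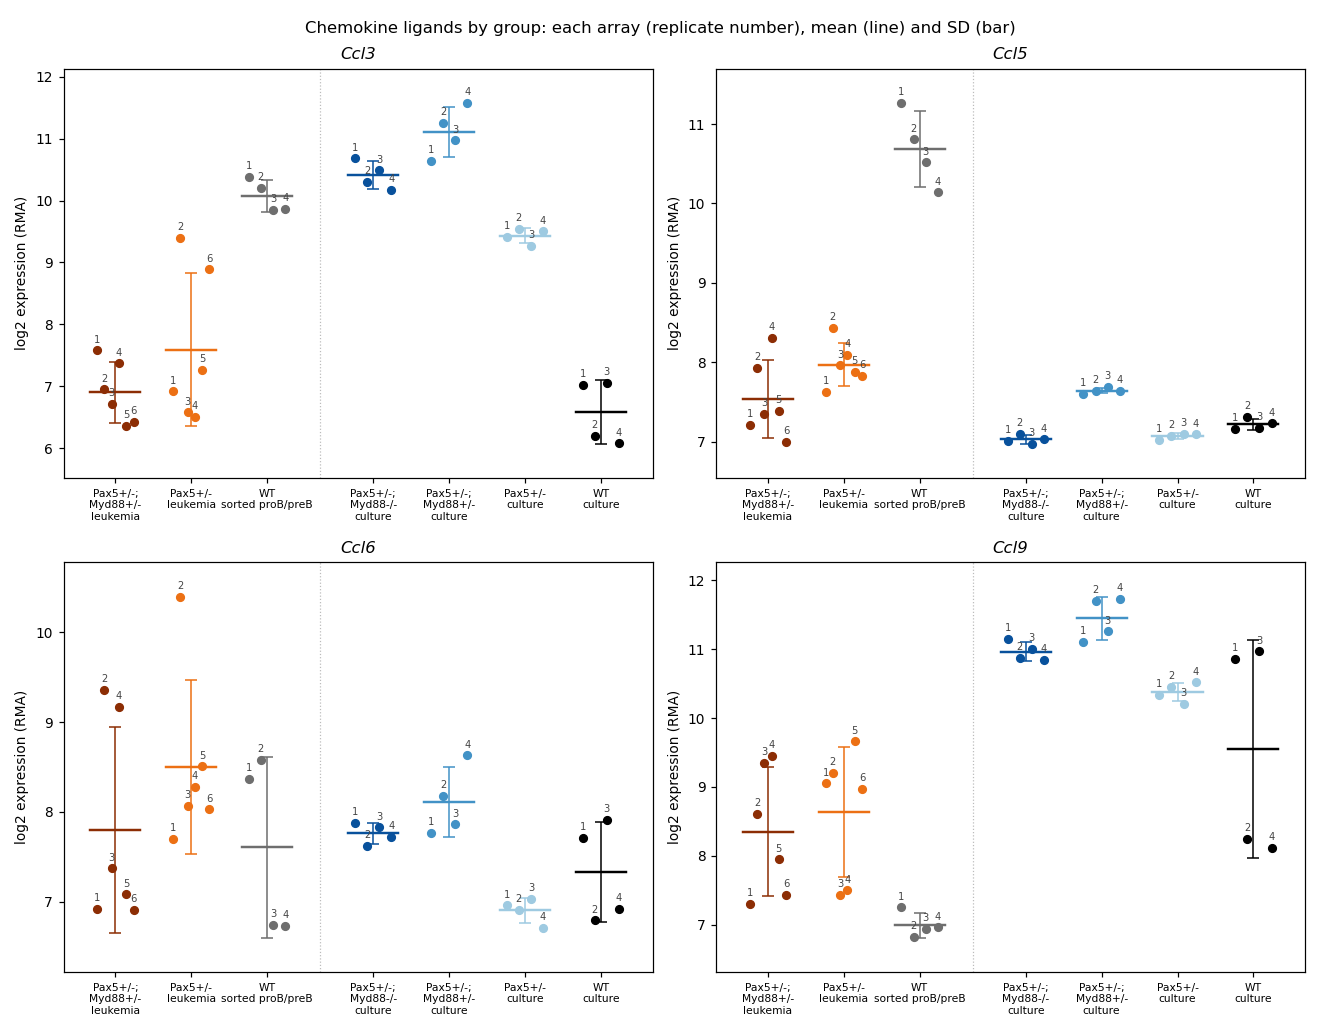
Log2 signal (y axis) of *Ccl3*, *Ccl5*, *Ccl6* and *Ccl9* in each of the 32 arrays by group (x axis), with the replicate number at each point, a line at the mean and a bar of 1 SD. *Ccl5* is above 10 only in the sorted WT cells, while *Ccl9* is above 10 in *Pax5+/-;Myd88-/-*, *Pax5+/-;Myd88+/-* and *Pax5+/-* cultures and splits in WT cultures, 2 arrays near 11 and 2 near 8.

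*Ccl3*, *Ccl4*, *Ccl5*, *Ccl6* and *Ccl9* lie together within 139 kb of chromosome 11 (RefSeq, GRCm38.p6). *Ccl5* occupies chr11:83525778-83530518, *Ccl9* chr11:83572917-83578636, *Ccl6* chr11:83587886-83593087, *Ccl3* chr11:83647843-83649378 and *Ccl4* chr11:83648624-83664683, where the gene records of *Ccl3* and *Ccl4* overlap. The 250 bases before the start of *Ccl3*, *Ccl6* and *Ccl9* are shown because these neighbours reached their highest culture means in the same genotype, *Pax5+/-;Myd88+/-*, and those of *Cxcl2* because that gene was flat. They are chr11:83649379-83649628, chr11:83593088-83593337 and chr11:83578637-83578886 on the minus strand and chr5:90903649-90903898 on the plus strand. *Ccl5* also had its highest culture mean (7.64) in *Pax5+/-;Myd88+/-* cultures, but no window was available for it. Capitals mark matches on either strand to an NF-kB site (GGGA and TTCC with any 2 bases between them), an AP-1 site (TGANTCA) or a TATA box (TATAAA).
Ccl3: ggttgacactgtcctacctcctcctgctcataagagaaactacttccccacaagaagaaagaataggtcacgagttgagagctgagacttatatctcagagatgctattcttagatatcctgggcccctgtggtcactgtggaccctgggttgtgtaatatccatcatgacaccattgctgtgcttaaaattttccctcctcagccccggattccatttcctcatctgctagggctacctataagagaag
Ccl6: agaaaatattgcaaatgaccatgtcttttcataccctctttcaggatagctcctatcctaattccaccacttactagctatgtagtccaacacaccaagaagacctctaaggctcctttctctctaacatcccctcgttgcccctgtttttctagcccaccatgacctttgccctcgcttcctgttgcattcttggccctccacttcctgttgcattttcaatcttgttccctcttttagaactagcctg
Ccl9: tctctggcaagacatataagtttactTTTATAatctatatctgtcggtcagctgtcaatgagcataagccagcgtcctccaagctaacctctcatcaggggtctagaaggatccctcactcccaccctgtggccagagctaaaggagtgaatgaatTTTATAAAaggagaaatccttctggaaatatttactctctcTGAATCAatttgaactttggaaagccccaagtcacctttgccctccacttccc
Cxcl2: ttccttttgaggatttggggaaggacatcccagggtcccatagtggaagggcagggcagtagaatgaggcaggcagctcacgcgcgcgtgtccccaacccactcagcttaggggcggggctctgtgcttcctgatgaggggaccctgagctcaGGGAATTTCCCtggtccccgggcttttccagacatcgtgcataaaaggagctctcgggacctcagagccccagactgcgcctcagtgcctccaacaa
The NF-kB letters occur in 1.21% of 32851 mouse windows of this length, the AP-1 letters in 6.75% and the TATA letters in 12.4%. *Cxcl2* held 2 overlapping NF-kB matches at -97 to -88 and -96 to -87 from the start. *Ccl9* held an AP-1 match at -53 to -47 and TATA matches, of which those near -94 overlap on opposite strands. In the *Ccl3* and *Ccl6* windows none of these letters occurred. The longest run shared by *Ccl6* and *Ccl9* was gccctccacttcc, 13 bases, at -55 in *Ccl6* and -14 in *Ccl9*. Matches of letters describe the windows and say nothing about binding in these cells.

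*Ccl9* (probeset 10389214), a myeloid-type CC ligand, was the only one of the 10 genes that rose in a leukemia genotype. Its levels were 7.30, 8.28 and 9.45 (lowest, median and highest) in *Pax5+/-;Myd88+/-* leukemias, 7.43, 9.01 and 9.66 in *Pax5+/-* leukemias, and 7.25, 6.82, 6.94 and 6.96 in sorted WT cells. Every leukemia lay above every sorted sample, the lowest leukemia (7.30) only just above the highest of them (7.25). *Ccl9* rose by 1.64 in *Pax5+/-* leukemias (SE 0.50, adjusted p = 0.0255, limma), a call lost without *Pax5+/-* leukemia replicate 5 or sorted replicate 2, 3 or 4 (1.44 to 1.63, adjusted p 0.0520 to 0.0628, limma). In *Pax5+/-;Myd88+/-* leukemias the log2 difference was 1.36 (95% interval 0.30 to 2.41), at the threshold and not called (adjusted p = 0.05, limma). Some alternative settings did call it, such as all 32 arrays in 1 fit (adjusted p = 0.0342, limma) or limma-trend (adjusted p = 0.0434). Between *Pax5+/-;Myd88+/-* and *Pax5+/-* leukemias *Ccl9* differed by -0.29 (95% interval -1.23 to 0.66).

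The mean over 14 macrophage markers was 6.69 to 9.22 in *Pax5+/-;Myd88+/-* leukemias, 7.76 to 8.58 in *Pax5+/-* leukemias and 6.55 to 6.73 in sorted cells, where 4 and 6 of the 14 rose in the 2 leukemia genotypes. Across single leukemias the macrophage mean and *Ccl9* did not share an order. In *Pax5+/-;Myd88+/-* leukemia replicates 3 and 4 *Ccl9* was 9.35 and 9.45, with macrophage means of 6.92 and 8.95. In *Pax5+/-* leukemia replicates 3 and 4 *Ccl9* was 7.43 and 7.50, with macrophage means of 8.11 and 8.38. The part of macrophages in the *Ccl9* difference was not tested. In all 16 cultures the same mean was 6.24 to 6.39, below every leukemia, while *Ccl9* reached 11.73. *Ccl9* stood at 10.84 to 11.15 in *Pax5+/-;Myd88-/-* cultures, 11.11, 11.70, 11.26 and 11.73 in *Pax5+/-;Myd88+/-* cultures, 10.34, 10.45, 10.21 and 10.52 in *Pax5+/-* cultures and 10.86, 8.25, 10.97 and 8.12 in WT cultures. WT replicates 1 and 3 thus lay among the *Pax5* mutants and replicates 2 and 4 far below them, a split that the stromal and B-lineage means of these 4 arrays shared, whose part was not tested. *Pax5+/-* cultures, which also split in the stromal mean, stayed within 0.31 of each other in *Ccl9*. *Ccl9* rose by 1.90 in *Pax5+/-;Myd88+/-* over WT cultures (SE 0.50, adjusted p = 0.0315, limma), and the adjusted p was 0.506 with arrays 1 and 3, and 2 and 4, averaged. The call was also lost without *Pax5+/-;Myd88+/-* replicate 2, 3 or 4 or WT replicate 2 or 4, with log2 differences of 1.42 to 1.96.

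*Ccl6* (probeset 10389222) followed no single genotype in the leukemias. It was 6.91, 7.22 and 9.36 (lowest, median and highest) in *Pax5+/-;Myd88+/-* leukemias, 7.70, 8.18 and 10.40 in *Pax5+/-* leukemias, and 8.37, 8.58, 6.74 and 6.73 in sorted cells. Sorted replicates 1 and 2 were high in *Ccl6* and also in the mean over 15 granulocyte markers (9.22 and 9.06, against 7.0 and 6.94 in replicates 3 and 4), and *Pax5+/-* leukemia replicate 2, the highest in *Ccl6*, was the highest in that mean too (11.37). Other leukemias did not follow that order: *Pax5+/-;Myd88+/-* replicate 2 had the highest *Ccl6* of its genotype (9.36) with a granulocyte mean of 6.57, and *Pax5+/-* replicate 5 had a granulocyte mean of 11.09 with *Ccl6* at 8.51. *Clec4e* and *Clec4d*, C-type lectins of myeloid cells, were the genes most like *Ccl6* over the 32 arrays (r = 0.79 and 0.78). The part of granulocytes was not tested. *Ccl6* differed by 0.20 between *Pax5+/-;Myd88+/-* leukemias and sorted cells (95% interval -1.15 to 1.54) and by 0.89 between *Pax5+/-* leukemias and sorted cells (95% interval -0.45 to 2.24).

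Cultures, where the granulocyte mean was 5.99 to 6.14, held *Ccl6* at 7.88, 7.62, 7.83 and 7.72 (*Pax5+/-;Myd88-/-*), 7.77, 8.18, 7.86 and 8.63 (*Pax5+/-;Myd88+/-*), 6.96, 6.91, 7.03 and 6.71 (*Pax5+/-*) and 7.71, 6.79, 7.91 and 6.92 (WT). The *Pax5+/-* cultures lay below every *Myd88*-deficient culture, and WT cultures spanned both. *Ccl6* rose by 1.21 in *Pax5+/-;Myd88+/-* over *Pax5+/-* cultures (SE 0.22, adjusted p = 0.00251, limma), with an adjusted p of 0.258 when arrays 1 and 3, and 2 and 4, were averaged. This call was lost in 2 of 19 alternative settings, with a highest adjusted p of 0.694 (limma). *Pax5+/-;Myd88-/-* cultures exceeded *Pax5+/-* cultures by 0.86 (95% interval 0.39 to 1.33, adjusted p = 0.0202, limma), under the doubling.

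*Cxcl2* (probeset 10523156), an NF-kB target gene in macrophages, was flat. Its 32 values ran between 5.15 and 5.83, its group means spanned 0.08 log2 units, more than those of only 1.71% of probesets, and no 95% interval of a difference reached beyond 0.27 in size. The highest value belonged to *Pax5+/-* leukemia replicate 2.

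Of the 4 receptors, *Cxcr4* (probeset 10357472) was the most even between groups. It was 11.32, 11.78 and 11.89 (lowest, median and highest) in *Pax5+/-;Myd88+/-* leukemias, 11.28, 11.82 and 12.08 in *Pax5+/-* leukemias and 12.21, 12.45, 12.19 and 12.26 in sorted cells. All leukemias lay below all sorted samples, by a log2 difference of -0.61 in *Pax5+/-;Myd88+/-* leukemias (SE 0.15, adjusted p = 0.00629, limma) and -0.53 in *Pax5+/-* leukemias (SE 0.15, adjusted p = 0.0193, limma), both short of a halving. Culture values lay between 11.21 and 12.20, and no culture comparison of *Cxcr4* had an adjusted p under 0.05 by limma. *Cxcl12*, the gene of its ligand, averaged 7.85 in *Pax5+/-;Myd88+/-* leukemias, 8.45 in *Pax5+/-* leukemias and 6.46 in sorted cells, and rose by 1.99 in *Pax5+/-* leukemias over sorted cells (adjusted p = 0.0443, limma). The mean over 14 stromal markers was 7.05 to 8.82 in *Pax5+/-;Myd88+/-* leukemias, 7.88 to 9.03 in *Pax5+/-* leukemias and 6.37 to 6.47 in sorted cells.

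*Ccr7* (probeset 10390763), the receptor for CCL19 and CCL21, was lower in leukemias of both genotypes. It was 7.51, 7.64 and 8.44 (lowest, median and highest) in *Pax5+/-;Myd88+/-* leukemias, 8.25, 8.55 and 9.50 in *Pax5+/-* leukemias and 9.60, 9.71, 9.76 and 9.84 in sorted cells. No leukemia reached the sorted cells, and the 2 leukemia genotypes overlapped only through *Pax5+/-;Myd88+/-* replicate 1 (8.44), with the other 5 at 7.83 or below. *Ccr7* fell by 1.95 in *Pax5+/-;Myd88+/-* leukemias (SE 0.22, adjusted p = 5.58e-06, limma) and by 1.01 in *Pax5+/-* leukemias (SE 0.22, adjusted p = 0.00352, limma), where the second lay so near the doubling that leaving out *Pax5+/-* leukemia replicate 2, 3, 5 or 6 or sorted replicate 3 or 4 ended the call (log2 difference -0.91 without *Pax5+/-* leukemia replicate 6). Between *Pax5+/-;Myd88+/-* and *Pax5+/-* leukemias *Ccr7* differed by -0.95 (SE 0.19, adjusted p = 0.00158, limma), just under the doubling. That was less than the range of 1.25 among the *Pax5+/-* leukemias. *Ccl19* averaged 7.42, 8.21 and 7.38 in *Pax5+/-;Myd88+/-* leukemias, *Pax5+/-* leukemias and sorted cells.

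In cultures *Ccr7* was 8.68, 8.88, 8.75 and 8.88 (*Pax5+/-;Myd88-/-*), 8.41, 8.66, 8.30 and 8.69 (*Pax5+/-;Myd88+/-*), 8.08, 8.27, 7.85 and 8.09 (*Pax5+/-*) and 9.14, 8.79, 9.33 and 9.01 (WT). The order of the means was therefore *Pax5+/-*, *Pax5+/-;Myd88+/-*, *Pax5+/-;Myd88-/-* and WT, of which *Pax5+/-;Myd88-/-* and WT differed by -0.27 (95% interval -0.52 to -0.02, adjusted p = 0.135, limma). *Pax5+/-* cultures differed from WT cultures by -0.99 (SE 0.12, adjusted p = 2.15e-05, limma), and *Pax5+/-;Myd88+/-* cultures exceeded *Pax5+/-* cultures by 0.44 (SE 0.12, adjusted p = 0.0388, limma). None of these passed the fold threshold.

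**Figure D3:**
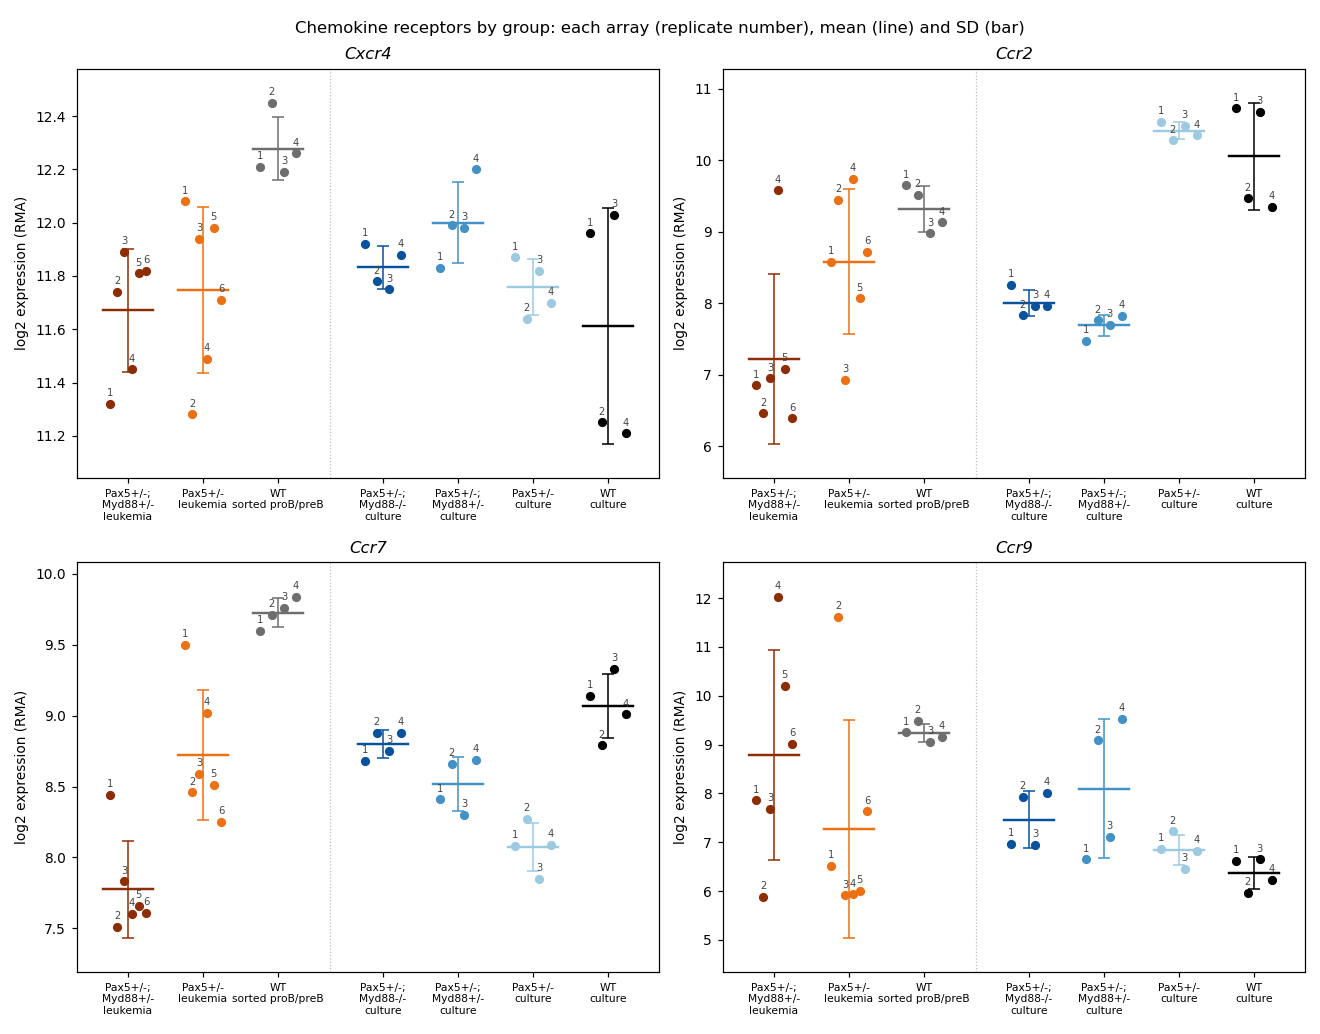
Log2 signal (y axis) of *Cxcr4*, *Ccr2*, *Ccr7* and *Ccr9* in each of the 32 arrays by group (x axis), with the replicate number at each point, a line at the mean and a bar of 1 SD. *Ccr2* lies between 7.47 and 8.26 in the *Pax5+/-;Myd88-/-* and *Pax5+/-;Myd88+/-* cultures and between 9.35 and 10.73 in the *Pax5+/-* and WT cultures, and *Ccr9* of the leukemias spreads between 5.88 and 12.03.

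*Ccr2* (probeset 10590631), the monocyte receptor for CCL2, fell in *Pax5+/-;Myd88+/-* leukemias against sorted cells. It was 6.39, 6.90 and 9.58 (lowest, median and highest) in *Pax5+/-;Myd88+/-* leukemias, 6.93, 8.65 and 9.74 in *Pax5+/-* leukemias and 9.65, 9.52, 8.98 and 9.13 in sorted cells. Replicate 4 was the only *Pax5+/-;Myd88+/-* leukemia within the sorted range, and the other 5 lay at 7.08 or below. The log2 difference from sorted cells was -2.10 in *Pax5+/-;Myd88+/-* leukemias (SE 0.59, adjusted p = 0.0127, limma) and -0.74 in *Pax5+/-* leukemias (95% interval -1.99 to 0.51). Between *Pax5+/-;Myd88+/-* and *Pax5+/-* leukemias it was -1.36 (SE 0.53, adjusted p = 0.0568, limma), and -1.84 without *Pax5+/-;Myd88+/-* replicate 4 (adjusted p = 0.00255, limma).

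The cultures split cleanly by *Myd88* genotype in *Ccr2*. It was 8.26, 7.83, 7.96 and 7.96 in *Pax5+/-;Myd88-/-* cultures and 7.47, 7.76, 7.70 and 7.82 in *Pax5+/-;Myd88+/-* cultures, against 10.54, 10.28, 10.48 and 10.35 in *Pax5+/-* cultures and 10.73, 9.47, 10.68 and 9.35 in WT cultures. *Ccr2* fell by 2.72 in *Pax5+/-;Myd88+/-* cultures against *Pax5+/-* cultures (SE 0.25, adjusted p = 1.56e-06, limma), to 15.1% of their linear level, and by 2.41 in *Pax5+/-;Myd88-/-* cultures (SE 0.25, adjusted p = 6.35e-06, limma). Over the alternative settings the highest adjusted p of these 2 calls was 0.0291 and 0.0391 (limma). The 2 *Myd88*-deficient genotypes differed by 0.32 (95% interval -0.21 to 0.84). *Xist* splits these cultures in the same way, and *Ccr2* (chr9:124101918-124109140) and *Ccr9* (chr9:123767211-123783457) lie 4.76 Mb and 4.43 Mb from *Myd88* (chr9:119335934-119340018), whose targeted allele came from another strain. The part of the strain of that flanking segment was not tested.

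*Ccr9* (probeset 10590620), the receptor for CCL25, was the most uneven of the 10 genes within a leukemia genotype. It was 7.86, 5.88, 7.68, 12.03, 10.20 and 9.02 in *Pax5+/-;Myd88+/-* leukemias, 6.52, 11.61, 5.91, 5.93, 6.01 and 7.63 in *Pax5+/-* leukemias, and 9.25, 9.48, 9.06 and 9.16 in sorted cells. In *Pax5+/-* leukemias 1 of the 6 lay above the sorted range and 5 below it, and in *Pax5+/-;Myd88+/-* leukemias 2 lay above it and 4 below. No comparison of *Ccr9* passed the test, and its differences came with wide intervals (*Pax5+/-;Myd88+/-* minus *Pax5+/-* leukemias 1.51, 95% interval -0.69 to 3.71). Without *Pax5+/-* leukemia replicate 2, *Pax5+/-* leukemias differed from sorted cells by -2.84 (adjusted p = 0.0341, limma). The mean over 7 other pDC markers, of which *Irf8*, *Tcf4*, *Ly6d* and *Bst2* are also expressed by B cells, was highest in the same leukemias, *Pax5+/-;Myd88+/-* replicate 4 (11.54) and *Pax5+/-* replicate 2 (11.16). Other leukemias did not all follow that order. *Pax5+/-;Myd88+/-* replicate 6 had the lowest pDC mean of its genotype (8.08) with *Ccr9* at 9.02. Replicate 1 of that genotype had a pDC mean of 9.91 with *Ccr9* at 7.86. The part of pDC was not tested.

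In cultures *Ccr9* was 6.97, 7.93, 6.95 and 8.01 (*Pax5+/-;Myd88-/-*), 6.65, 9.09, 7.11 and 9.53 (*Pax5+/-;Myd88+/-*), 6.86, 7.22, 6.46 and 6.83 (*Pax5+/-*) and 6.62, 5.96, 6.65 and 6.23 (WT). In the *Myd88*-deficient cultures arrays 2 and 4 were higher than arrays 1 and 3, and in WT cultures lower. *Ccr9* differed by 1.73 between *Pax5+/-;Myd88+/-* and WT cultures (95% interval 0.67 to 2.79, adjusted p = 0.0518, limma). *Siglech*, the defining pDC marker, was near 6.2 in the cultures while it averaged 9.09 in *Pax5+/-;Myd88+/-* leukemias, 8.12 in *Pax5+/-* leukemias and 10.96 in sorted cells.

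**Figure D4:**
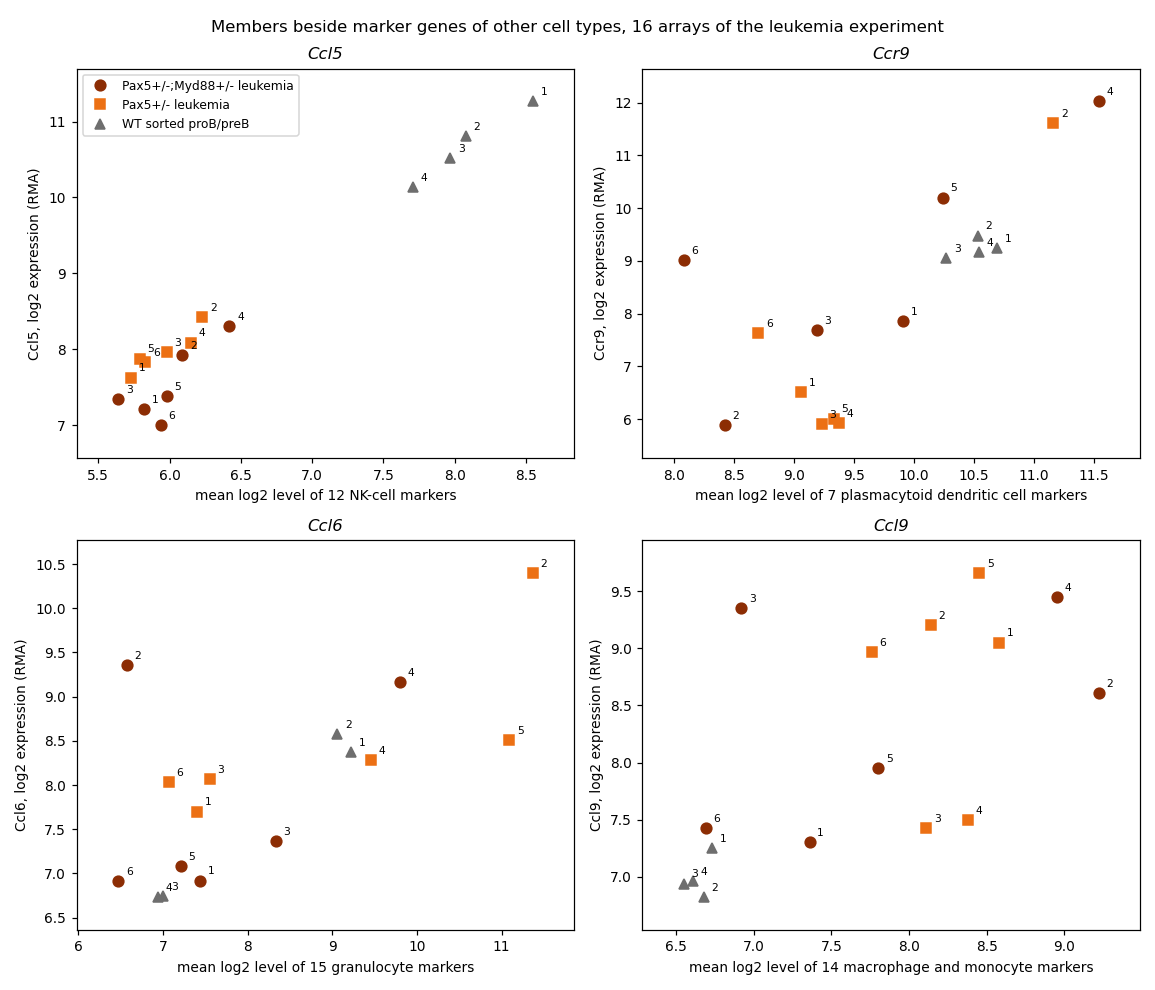
Log2 signal of *Ccl5*, *Ccr9*, *Ccl6* and *Ccl9* (y axes) against the mean log2 signal of 12 NK, 7 pDC, 15 granulocyte and 14 macrophage markers (x axes) in the 16 arrays of the leukemia experiment, coloured by group. The sorted cells stand apart at the upper right for *Ccl5* and NK markers, and *Ccr9* is highest where the pDC mean is above 11.

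Loss of 1 *Myd88* allele on the *Pax5+/-* background was read both in leukemias and in cultures, and a fit over all 32 arrays tested whether the 2 effects differed, with 4.55% of all probesets called under the same rule. The effect differed by the call rule for *Ccl3*, *Ccl5*, *Ccl6* and *Ccr7*. For *Ccl3* it was -0.69 in leukemias and 1.68 in cultures, a difference of -2.37 (SE 0.57, adjusted p = 0.00304, limma, and 0.0837 with culture arrays 1 and 3, and 2 and 4, averaged). For *Ccr7* it was -0.95 in leukemias and 0.44 in cultures, a difference of -1.39 (SE 0.25, adjusted p = 0.000167, limma). The corresponding differences were -1.90 for *Ccl6* (SE 0.69, adjusted p = 0.0490, limma), called in only 9 of 26 alternative settings, and -1.01 for *Ccl5* (SE 0.27, adjusted p = 0.00641, limma), called in 16 of 26. For *Ccr2* the 2 effects, -1.36 and -2.72, ran the same way (difference 1.36, adjusted p = 0.145, limma), and for *Ccr9* they differed by 0.26 (adjusted p = 0.911, limma). Leukemic marrow and cultures also differ in the other cells they hold, as the marker values above give, and in sex by genotype, and those parts were not tested.

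**Figure D5:**
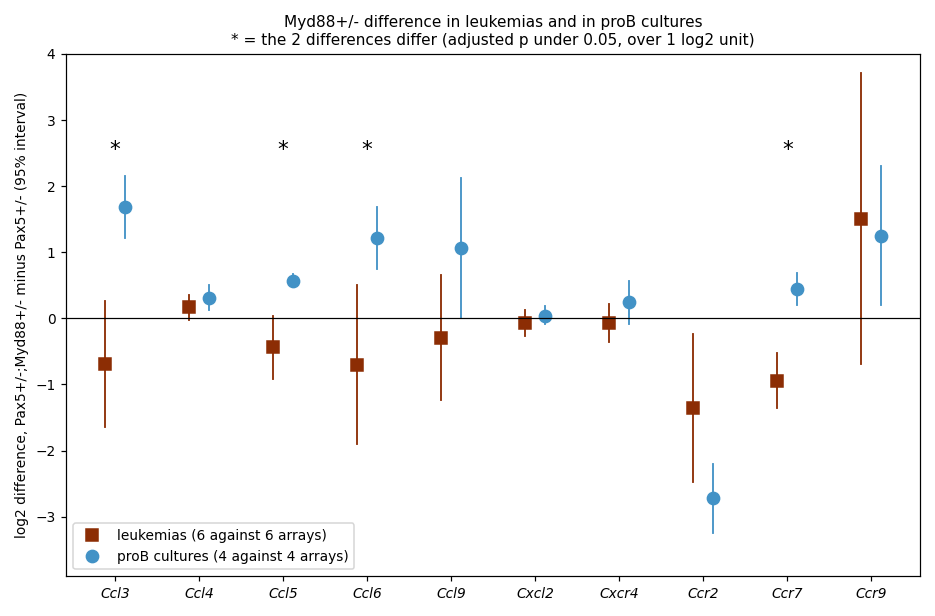
Log2 difference between *Pax5+/-;Myd88+/-* and *Pax5+/-* samples in leukemias and in proB cultures (y axis, with 95% intervals) for each of the 10 genes (x axis). An asterisk marks genes whose 2 differences were called unequal. The asterisks fall on *Ccl3*, *Ccl5*, *Ccl6* and *Ccr7*, whose points are below 0 in leukemias and above 0 in cultures. The leukemia intervals of *Ccl3*, *Ccl5* and *Ccl6* reach across 0.

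Of the rest of the chemokine family, 49 further genes were measured. Against sorted cells, *Pax5+/-;Myd88+/-* leukemias had 1 of them higher and 2 lower (6.12% of the 49, against 7.64% of all probesets), and *Pax5+/-* leukemias 3 higher and 2 lower (10.2%, against 4.44%). *Xcl1*, a ligand made by NK and T cells, fell by 2.05 in *Pax5+/-;Myd88+/-* leukemias (adjusted p = 3.41e-07, limma) and by 2.17 in *Pax5+/-* leukemias (adjusted p = 8.15e-07, limma), and *Cxcr3* was the other gene that fell in both. The platelet chemokine gene *Ppbp* rose by 2.86 in *Pax5+/-;Myd88+/-* leukemias (adjusted p = 0.0322, limma) and by 6.21 in *Pax5+/-* leukemias (adjusted p = 0.000279, limma), while the mean over 6 platelet markers was 6.82 to 9.08, 7.80 to 10.11 and, in sorted cells, 7.26 to 7.48. *Ppbp* was also the 1 of these 49 genes that differed between *Pax5+/-;Myd88+/-* and *Pax5+/-* leukemias (-3.36, adjusted p = 0.00675, limma). That was 2.04% of the 49, against 3.82% of all probesets. In cultures *Cxcr5*, the receptor that guides B cells to follicles, fell against WT by 1.48 in *Pax5+/-* (adjusted p = 0.000972, limma), 1.61 in *Pax5+/-;Myd88+/-* (adjusted p = 0.000468, limma) and 1.70 in *Pax5+/-;Myd88-/-* cultures (adjusted p = 0.000225, limma), and it was the 1 family gene called there beyond the 10. In each of these comparisons with WT cultures that was 2.04% of the 49. The shares of all probesets were 1.08% (*Pax5+/-*), 1.15% (*Pax5+/-;Myd88+/-*) and 1.28% (*Pax5+/-;Myd88-/-*). The other culture comparisons called 0 of the 49, against 0.808% to 0.985% of all probesets. *Ccr1*, which binds CCL3, CCL5 and CCL9, averaged 5.44, 6.36 and 5.58 in *Pax5+/-;Myd88+/-* leukemias, *Pax5+/-* leukemias and sorted cells.

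Of 30 measured genes that act downstream of chemokine receptors, 2 passed the test in *Pax5+/-;Myd88+/-* leukemias (6.67%, against 7.64% of all probesets) and 4 in *Pax5+/-* leukemias (13.3%, against 4.44%) compared with sorted cells, and 2 between the leukemia genotypes (6.67%, against 3.82%). Each culture comparison called between 0 and 3 of them. Against WT cultures it was 1 in *Pax5+/-* (3.33%, against 1.08%), 3 in *Pax5+/-;Myd88+/-* (10%, against 1.15%) and 2 in *Pax5+/-;Myd88-/-* cultures (6.67%, against 1.28%). Against *Pax5+/-* cultures it was 2 in *Pax5+/-;Myd88+/-* (6.67%, against 0.812%) and 1 in *Pax5+/-;Myd88-/-* cultures (3.33%, against 0.985%). Between the *Myd88*-deficient genotypes it was 0 (against 0.808%). *Rgs2*, a regulator that shortens G protein signals, fell by 3.13 in *Pax5+/-;Myd88+/-* leukemias and fell by 2.77 in *Pax5+/-* leukemias against sorted cells, and rose by 1.16 in *Pax5+/-;Myd88-/-*, 1.95 in *Pax5+/-;Myd88+/-* and 1.36 in *Pax5+/-* cultures against WT cultures, the same directions as *Ccl3*. *Pax5+/-;Myd88+/-* leukemias had 1 signaling gene higher and 1 lower than sorted cells, and *Pax5+/-* leukemias 3 higher, with the beta-arrestin genes *Arrb1* (1.3) and *Arrb2* (1.24) among them, and 1 lower. *Rgs18* and *Arrb2* fell in *Pax5+/-;Myd88+/-* against *Pax5+/-* leukemias, with log2 differences of -1.26 and -1.10. *Rgs18* rose in *Pax5+/-;Myd88-/-* cultures by 1.45 over *Pax5+/-* and by 2.18 over WT cultures, and in *Pax5+/-;Myd88+/-* cultures by 1.12 and 1.85. *Rgs1* rose in *Pax5+/-;Myd88+/-* cultures by 1.25 and 1.5.

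The gene most like each of the others over the 32 arrays was *Camk1g* for *Ccl3* (r = 0.87), *Igsf9b* for *Ccl4* (0.79), *Dtx4* for *Ccl9* (0.91), *Crispld2* for *Cxcl2* (0.85), *Tifa* for *Cxcr4* (0.87), *Dach1* for *Ccr2* (0.72), *Ube2j1* for *Ccr7* (0.88) and *Plekhm3* for *Ccr9* (0.82). The lowest correlation between 2 of the 10 genes was that of *Ccl5* and *Ccl9* (r = -0.60). These values describe arrays that share groups.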

How the data were processed

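RNA levels were read on MoGene ST arrays from Affymetrix. The authors deposited gene-level log2 values, background-corrected, quantile normalized and summarised by RMA (Transcriptome Analysis Console, mm10), a method that compresses large fold changes. The table holds 28944 probesets, of which 21789 name 1 gene, 1621 several and 5534 none in the platform annotation. The deposited values were used as given, with groups and replicate numbers from the labels, which call replicates biological.

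The 10 genes and all gene and marker lists were chosen with earlier results of these data known. The genes named besides were the 2 most correlated with each, and called or partner genes of the lists. Differences were tested with limma 3.58.1 (R 4.3.3) in 1 fit per experiment, moderated by eBayes, with Benjamini-Hochberg adjustment over all probesets. The code was tested on simulated data first. The alternatives were other sets of samples, scalings, a filter on dim probesets, variance models, call rules, the replicate number as a block, each array left out, and culture arrays 1 and 3, and 2 and 4, averaged, the last chosen for all 4 genotypes after seeing the data, as were the alternatives of the difference between leukemia and culture effects. The number of arrays limits the precision. Same-numbered samples deviated together (correlations of 0.12 to 0.22 over 4 pairs) only for *Pax5+/-;Myd88-/-* and WT cultures. Promoter windows were from RefSeq (GRCm38.p6), which held 7 of the 10 genes.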

Additional observations from a re-analysis of the deposited data

Results flagged for a closer look

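In 5 of the 70 sets formed by a gene and a group, 1 array lay far from the others of its group, where chance flags about 1 in 20. *Pax5+/-* leukemia replicate 2 was such an array for *Ccl6* (10.4, next 8.51), *Cxcl2* (5.83, next 5.37) and *Ccr9* (11.61, next 7.63). *Pax5+/-;Myd88+/-* leukemia replicate 4 was one for *Ccr2* (9.58, next 7.08), and *Pax5+/-;Myd88+/-* leukemia replicate 1 for *Ccr7* (8.44, next 7.83).

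The difference between *Pax5+/-;Myd88+/-* and *Pax5+/-* samples was unequal in leukemias and proB cultures for 4 of 10 genes, with 4.55% of all probesets called. It differed by -2.37 for *Ccl3*, -1.01 for *Ccl5*, -1.90 for *Ccl6* and -1.39 for *Ccr7*. These are log2 differences of leukemia effect minus culture effect from limma's fit over all 32 arrays. In the cultures these genotypes also differ in *Xist*, so that *Myd88* and sex cannot be told apart there. The mean of each of these genes was lower in *Pax5+/-;Myd88+/-* than in *Pax5+/-* leukemias and higher in *Pax5+/-;Myd88+/-* than in *Pax5+/-* cultures. In the leukemias only the 95% interval of *Ccr7* excluded 0 (-1.36 to -0.53), against -1.65 to 0.27 (*Ccl3*), -0.92 to 0.04 (*Ccl5*) and -1.90 to 0.50 (*Ccl6*). The call of *Ccl6* held in 9 of 26 alternative settings and that of *Ccl5* in 16 of 26. For *Ccl3* the adjusted p reached 0.0837 (limma) in 1 of them.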

How the results depend on the processing

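The 18 called differences of single genes were recomputed under 356 alternatives in all: 331 kept their direction and call, 25 lost the call and 0 turned round. The lost calls were those of *Ccl9* (9 of 20 alternatives for *Pax5+/-;Myd88+/-* against WT cultures, adjusted p 0.00336 to 0.506, and 5 of 20 for *Pax5+/-* leukemias against sorted cells), *Ccr7* (7 of 20, *Pax5+/-* leukemias against sorted cells) and *Ccl3* and *Ccl6* (2 of 19 each, *Pax5+/-;Myd88+/-* against *Pax5+/-* cultures). Without a fold threshold the counts of called genes were 2 for *Pax5+/-* against WT cultures, 5 for *Pax5+/-;Myd88-/-* against *Pax5+/-* cultures, 1 for *Pax5+/-;Myd88-/-* against *Pax5+/-;Myd88+/-* cultures, 4 for *Pax5+/-;Myd88-/-* against WT cultures, 5 and 7 for *Pax5+/-;Myd88+/-* against *Pax5+/-* and against WT cultures, and 1 for *Pax5+/-;Myd88+/-* against *Pax5+/-* leukemias. With an unadjusted p under 0.05 and a doubling, as in the methods, 4 genes were called for *Pax5+/-;Myd88-/-* against WT cultures. The same rule called 5 for *Pax5+/-;Myd88+/-* against *Pax5+/-* cultures and 1 between the 2 leukemia genotypes. Shares of all probesets under these looser rules are not given, so that these counts cannot be set against a background. At an unadjusted p under 0.05 alone (limma), 8271, 3400 and 12821 of 28944 probesets passed in these comparisons. The chosen genes that passed there numbered 7, 8 and 2. Centring on the median, quantile normalization or array weights gave 2 for *Pax5+/-* against WT cultures by adding *Ccr7*, and centring gave 2 for *Pax5+/-;Myd88-/-* against *Pax5+/-* cultures by adding *Ccl3*. All 32 arrays in 1 fit, a filter at a mean of 6 or limma-trend gave 1 (*Ccr2*) between the leukemia genotypes. One fit of all arrays, like averaging culture arrays 1 and 3, and 2 and 4, left 1 (*Ccr2*) for *Pax5+/-;Myd88+/-* against *Pax5+/-* cultures.

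With the replicate number as a block, *Pax5+/-* leukemias against sorted cells kept 2 calls (*Ccl3* and *Ccl5*), and *Ccr2* was called between the leukemia genotypes (1 gene, adjusted p = 0.0458, limma). The block moved no other count by over 1.5 times. Same-numbered samples deviated with correlations of -0.27 to 0.52, and the labels do not say that a number marks a shared animal or day.

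Leaving out 1 array at a time gave 4 to 5 calls for *Pax5+/-;Myd88+/-* leukemias and 2 to 4 for *Pax5+/-* leukemias against sorted cells, the 2 without *Pax5+/-* leukemia replicate 5 or sorted replicate 3 or 4. *Ccr7* alone was also lost without *Pax5+/-* leukemia replicate 2, 3 or 6, and *Ccl9* alone without sorted replicate 2. It gave 0 to 1 between the leukemia genotypes, with *Ccr7* added without *Pax5+/-;Myd88+/-* replicate 1 or *Pax5+/-* replicate 6, *Ccr2* without *Pax5+/-;Myd88+/-* replicate 4 or *Pax5+/-* replicate 3, and *Ccr9* (2.38, adjusted p = 0.0361, limma) without *Pax5+/-* replicate 2. In cultures it gave 1 to 2 for *Pax5+/-* against WT and for *Pax5+/-;Myd88-/-* against *Pax5+/-* (2 in each without replicate 2 or 4 of either group), 0 to 0 between the *Myd88*-deficient genotypes, 2 to 3 for *Pax5+/-;Myd88-/-* against WT, 3 to 4 for *Pax5+/-;Myd88+/-* against *Pax5+/-* and 2 to 4 against WT. The difference between leukemia and culture effects of *Ccl6* lost its call without any 1 of 15 arrays of 20 (-2.22 to -1.52 over all 20), and that of *Ccl5* without any 1 of 8 (-1.17 to -0.90). Averaging probesets changed nothing, since each gene has 1.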
